A study of Mus musculus with 96 samples.

Results

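Cells of E14, a mouse embryonic stem cell line, differ in how far each has moved through the cell cycle, and the comparison here set the cells with the most messenger RNA of late G2 and mitosis against those with the least. The study measured RNA and DNA methylation in the same single cells. The cells used are wild type, with a strain labelled C57BL/6, and all grew in serum/LIF, serum plus the cytokine leukaemia inhibitory factor, a medium that keeps stem cells dividing, so both groups share line, genotype and medium. The RNA was parted from DNA by G&T-seq and sequenced from Nextera XT libraries. Counts were analysed for 61 cells of 76 listed serum/LIF wells. An index was computed for each cell as the mean log2(CPM + 1) of 8 genes, Ccnb1, Cdc20, Plk1, Cenpf, Aurka, Hmmr, Cenpe and Bub1, where CPM is the gene's count per 1000000 gene counts of the cell. Members were chosen by this measured index. The 20 cells of highest index, called high cells, were compared with the 20 of lowest index, called low cells, and the other 21 cells lay between.

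As background, cells that have copied their DNA build up cyclin B1 and CDK1, whose kinase activity starts mitosis. Polo-like kinase 1 and the Aurora kinases shape the spindle, kinetochore proteins tie chromosomes to it, and the anaphase-promoting complex with CDC20 then marks cyclin B1 for destruction. Many of these genes are read mostly in late G2 and mitosis, through promoters that hold a cell cycle homology region and CCAAT boxes, bound by MuvB complexes with B-MYB or FOXM1 and by NF-Y. Embryonic stem cells divide fast and spend little of their cycle in G1.

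A sample here is a single cell and no label ties cells to different cultures, so all cells stand as 1 culture. No p-value is therefore given, and each difference is described by its size, the spread over cells and how far the groups overlap. Total gene counts ranged from 2892439 to 5974802 in high cells (median 4297487) and from 2417702 to 6597540 in low cells (median 3860960). Genes with a count ranged from 7102 to 10032 in high cells and from 5317 to 9291 in low cells. The mitochondrial share of counts was 0.943% to 4.45% in high cells (median 1.78%) and 1.36% to 4.43% in low cells (median 2.25%). Chromosome 14 took less than 85% of its median share of autosomal counts in 7 cells, of which 2 were high cells and 3 low cells. These library measures overlapped widely between the groups, and their part in the differences was not tested. Summed CPM of the stem cell markers Pou5f1, Sox2, Nanog, Sall4 and Utf1 was 271 to 3508 in high cells and 211 to 2779 in low cells, with all 5 detected in both groups. Markers of other cell types were scarce: the median summed CPM was 0 in high cells for primitive endoderm, trophectoderm, neurectoderm, fibroblast and 2-cell-like markers, and at most 1.29 in low cells. Trophectoderm markers Elf5 and Hand1 and neurectoderm markers Sox1 and Hes5 had no count in either group. The highest summed values of the trophectoderm set were 228 CPM in high cells and 529 CPM in low cells. For the fibroblast set they were 108 and 213 CPM, and for the primitive endoderm set 29.5 and 208 CPM. In a longer fibroblast list of 12 genes, 3 passed the count filter, with a median difference of -0.06. Acta2, smooth muscle actin, did not pass it but reached 491 CPM in a low cell and had a count in 5 of 20 low cells. Its mean levels were 0.37 and 48.3 CPM in high and low cells, and those of Col1a2 were 1.02 and 12.5 CPM. Col1a1 (3.19 and 0.086 CPM) and Col3a1 (1.99 and 0.74 CPM) went the other way.

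Short stretches of promoter show the letters that the group's genes tend to hold. Each is the 120 bases before the RefSeq start on GRCm38.p6, read 5′ to 3′ on the gene's strand, with matches in capitals: TTTGAA or its reverse TTCAAA and TTTAAA for the cell cycle homology region, and CCAAT or its reverse ATTGG. Hmmr, an index gene, lies at chr11:40733438-40733557, minus strand. Top2a (chr11:99024190-99024309, minus strand) and Kif11 (chr19:37376262-37376381, plus strand) are among the genes with the highest differences and hold both kinds of match. Racgap1 (chr15:99651657-99651776, minus strand) holds a CCAAT box alone and Kif20b (chr19:34922238-34922357, plus strand) holds neither in this stretch.
Hmmr: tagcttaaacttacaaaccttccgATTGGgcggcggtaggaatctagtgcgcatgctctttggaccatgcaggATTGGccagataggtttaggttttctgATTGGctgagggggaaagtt
Top2a: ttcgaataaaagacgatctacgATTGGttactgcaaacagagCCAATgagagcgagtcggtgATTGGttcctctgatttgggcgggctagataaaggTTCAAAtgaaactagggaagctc
Kif11: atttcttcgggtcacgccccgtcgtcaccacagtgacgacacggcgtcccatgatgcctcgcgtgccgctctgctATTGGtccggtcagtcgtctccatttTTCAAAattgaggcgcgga
Racgap1: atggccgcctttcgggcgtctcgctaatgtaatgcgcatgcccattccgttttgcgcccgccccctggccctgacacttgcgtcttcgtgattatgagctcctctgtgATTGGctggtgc
Kif20b: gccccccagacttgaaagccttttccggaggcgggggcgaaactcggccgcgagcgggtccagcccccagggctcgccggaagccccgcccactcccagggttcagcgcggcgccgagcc
In Top2a the homology letters begin 23 bases before the start and in Kif11 19 bases before it. A match is a description of letters and not a bound site, and a missing match says only that these letters are not in the window.

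The index chose the groups, so its values are a description. It ranged from 7.45 to 9.33 in high cells (median 8.29), from 6.10 to 7.41 in the other 21 cells (median 6.60) and from 0.70 to 5.99 in low cells (median 4.96). The step at each border was small: the last high cell had 7.45 and the next cell 7.41, and the last cell of the middle had 6.10 and the first low cell 5.99. Low cells were spread far more widely (SD 1.81) than high cells (SD 0.51). Their 4 lowest cells lay apart at 0.70 to 1.71, below the other 16 at 3.14 to 5.99. All 8 index genes had a count in every high cell, against 1 to 8 of them in low cells (median 6).

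Within the index, the genes differed in how nearly they were lost. Aurka, the Aurora A kinase of spindle poles (chr2:172356190-172370535), had 66.1 to 676 CPM (median 228) in high cells and 0 to 124 CPM (median 0) in low cells, where 7 of 20 cells had a count. Plk1 (chr7:122159439-122169873) had 67.4 to 456 CPM (median 142) in high cells and 0 to 137 CPM (median 0) in low cells. These kinases were the index genes most often without a count in low cells. Cdc20, the activator of the anaphase-promoting complex, had a count in 20 of 20 low cells, at 1.15 to 1490 CPM (median 397), against 273 to 2065 CPM (median 1059) in high cells. Ccnb1, cyclin B1, had 68.3 to 1401 CPM (median 716) in high cells and 0 to 963 CPM (median 149) in low cells. Bub1, a checkpoint kinase, had medians of 227 and 118 CPM, the closest of the 8 by ratio of mean CPM at 1.78. The centromere proteins Cenpf and Cenpe and the hyaluronan receptor and spindle protein Hmmr had medians in low cells of 7.34, 71.6 and 8.77 CPM, against 271, 377 and 279 CPM in high cells. For each of the 8 genes the highest low cell lay inside the range of high cells.

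**Figure D1:**
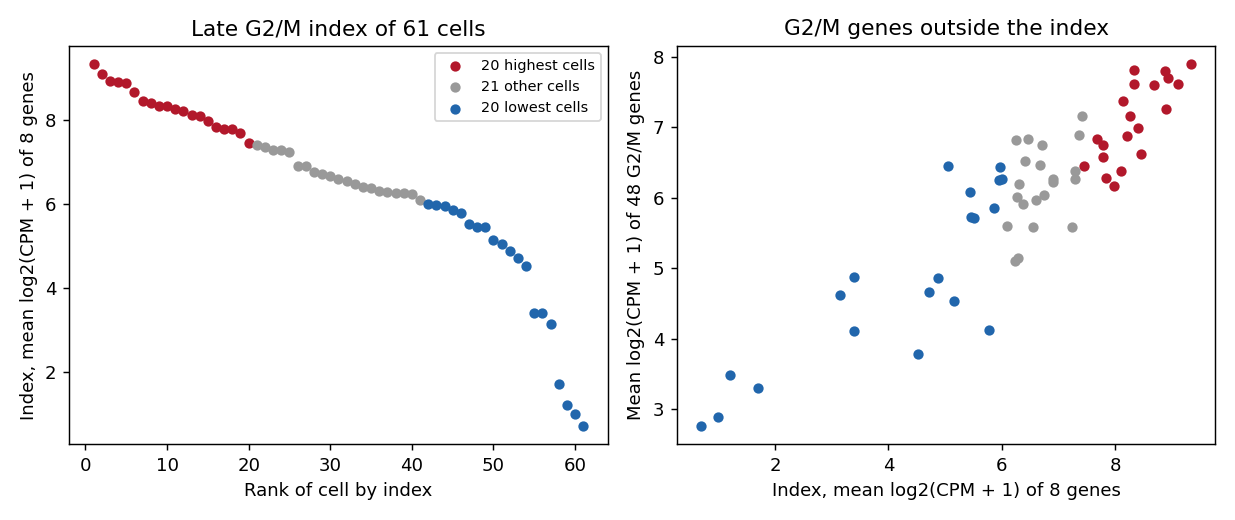
Left, the index of each of the 61 cells (mean log2(CPM + 1) of 8 genes) against its rank. Right, the mean log2(CPM + 1) of 48 G2/M genes outside the index against the index, 1 point per cell: high cells sit at 6.17 to 7.90, and low cells spread from 2.76 to 6.46.

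Genes outside the index followed it. The index genes were left out of 10868 genes that had 10 or more counts in 10 or more of the 61 cells, which left 10860 genes. By the first rule, a difference of at least 1 in mean log2(CPM + 1), 1440 genes (13.3% of those compared) were higher in high cells and 575 (5.29%) lower, and the median difference over all genes was 0.14. The second rule asked that the lower quartile of one group lie above the upper quartile of the other. It held for 59 genes higher in high cells (0.543%) and 4 lower (0.0368%). For no gene did every cell of one group lie beyond every cell of the other. Genes of mitosis led the 59, and 30 of them belonged to a cell cycle list used here. The share of all genes compared that belong to such a list was not counted. The count of 59 moved with group size, to 359 with 10 cells in each group and 10 with 30 cells in each. The counts of the first rule moved too, to 302 higher and 70 lower with a pseudocount of 10 CPM, and to 1356 higher and 998 lower without 6 cells that stood apart in library measures.

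A widely used list of G2/M genes, with the index genes taken out, left 48 genes that all passed the count filter. Of these, 19 were higher in high cells by the quartile rule and none was lower, beside 0.543% of all genes. By the difference rule 39 were higher, and the median difference was 2.03 against 0.14 over all genes. Averaged per cell, the 48 genes had 6.17 to 7.90 in high cells (median 7.08), 5.10 to 7.15 in the 21 middle cells (median 6.23) and 2.76 to 6.46 in low cells (median 4.76). The groups overlapped: 4 low cells and 12 middle cells lay above the lowest high cell. Without the 4 cells of lowest index, 10 of the 48 were higher by the quartile rule and the median difference was 1.80. Over the 61 cells Pearson's r of this mean with the index was 0.91 and Spearman's rho 0.86. Within the 21 middle cells, which the groups did not use, r was 0.44 and rho 0.47, as a description of cells that share line and medium.

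The leading gene was Ube2c (chr2:164769898-164778822), the ubiquitin-conjugating enzyme that serves the anaphase-promoting complex. It had 11.9 to 711 CPM (median 213) in high cells and 0 to 159 CPM (median 0.095) in low cells, with a count in 20 of 20 and 10 of 20 cells. Its mean log2 level was 7.57 ± 1.65 and 2.65 ± 3.03 (SD over cells), a difference of 4.91, and its mean CPM was 9.93 times as high. Low cells thus split between those near 0 and those that reached the lower part of the high range.

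The list of kinesins holds motors that build and move the spindle and also transport motors. Of its 16 members, 5 were higher by the quartile rule, beside 0.543% of all genes. Their median difference was 2.37. Kif11, the motor that pushes spindle poles apart (chr19:37376403-37421859), had 21.5 to 535 CPM (median 234) in high cells and 0 to 524 CPM (median 0.397) in low cells, with log2 means of 7.76 ± 1.11 and 2.96 ± 3.58 (SD) and a difference of 4.80. Its highest low cell nearly reached the top of the high range, while 10 of 20 low cells had any count. Kif2c, which takes microtubules apart at centromeres, differed by 4.16 (mean 164 and 39.7 CPM). Kif20b, a motor of late mitosis and cytokinesis, differed by 3.74 but was detected in 17 of 20 low cells at 0 to 996 CPM (median 95.3). Kif18a (3.41) and Kif14 (2.94) also passed the rule, while the transport motors Kif5b (0.25) and Kif3a (-0.44) did not.

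The spindle-associated proteins had 7 of 22 members higher by the quartile rule, beside 0.543% of all genes, and a median of 1.85. The cytokinesis genes had 5 of 12 higher by that rule and a median of 2.51. Prc1, which bundles the microtubules of the central spindle (chr7:80294450-80316259), had 1.67 to 563 CPM (median 266) in high cells and 0 to 189 CPM (median 0.528) in low cells, a ratio of mean CPM of 8.72. Racgap1, a subunit of centralspindlin (chr15:99620496-99651656), had 26.3 to 280 CPM (median 135) and 0 to 163 CPM (median 0), with a count in 8 of 20 low cells. High cells kept it in a narrow band, with an SD of 0.83 on the log2 scale against 3.19 in low cells. Aspm, a spindle pole protein, differed by 4.06, Nusap1, which binds spindle microtubules, by 3.44, and Ect2 and Anln, which set up the contractile ring, by 2.67 and 3.01. Tpx2, an activator of Aurora A, differed by 3.18 without passing the quartile rule.

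The chromosomal passenger complex corrects faulty attachments of chromosomes. A list of its genes together with shugoshin genes had 3 of 7 members higher by the quartile rule (0.543% of all genes). All 7 were higher by the difference rule (13.3% of all genes). The scaffold of the complex, Incenp (chr19:9872296-9899551), had 10 to 467 CPM (median 134) in high cells and 0 to 122 CPM (median 0.231) in low cells. Its difference was 4.49. The kinase of the complex, Aurkb, had 0 to 369 CPM (median 65) and 0 to 104 CPM (median 0), with counts in 15 of 20 high cells and 6 of 20 low cells. The subunit Birc5, survivin, had 127 to 485 CPM (median 270) in high cells and 0 to 385 CPM (median 147) in low cells, where 16 of 20 cells had a count. The ratio of mean CPM was 6.66 for Incenp and 1.9 for Birc5.

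Kinetochore and centromere genes had 4 of 30 members higher by the quartile rule and 22 by the difference rule, beside 0.543% and 13.3% of all genes. Their median was 1.88. Ndc80, the outer kinetochore protein that grips microtubules (chr17:71496100-71526857), had 0 to 751 CPM (median 157) in high cells and 0 to 322 CPM (median 0.681) in low cells, with log2 means of 7.06 ± 2.26 and 2.48 ± 3.10 (SD) and a difference of 4.59. Cenpa, the centromeric histone, was present in 19 of 20 low cells at 0 to 544 CPM (median 119) and differed by 1.89. Hjurp, the chaperone that loads it, differed by 2.38 without passing the quartile rule. Spindle checkpoint genes had 9 of 12 members higher by the difference rule and a median of 1.83, but none passed the quartile rule. Among them Ttk, the checkpoint kinase also called MPS1, had medians of 148 and 7.17 CPM and the widest difference, 3.75, while Mad1l1 (-0.16) and Kntc1 (-0.46) lay below 0.

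The condensin and topoisomerase list, which also holds other genes, had 3 of 11 members higher by the quartile rule, beside 0.543% of all genes. Its median was 1.48. Top2a and Ncaph were the condensin and topoisomerase genes among those past the quartile rule. Top2a, topoisomerase II alpha (chr11:98992943-99024189), had 115 to 4872 CPM (median 1231) in high cells and 0 to 1179 CPM (median 136) in low cells, with log2 means of 10.08 ± 1.31 and 6.05 ± 3.87 (SD) and a difference of 4.03. Its middle cells had a median of 787 CPM. The condensin I subunit Ncaph differed by 3.61 and passed the quartile rule, whereas Smc2 (0.97), a core subunit shared by both condensins, did not. Mki67, which coats mitotic chromosomes and is a common mark of dividing cells, differed by 3.38. In cohesin, Esco2, which acetylates cohesin in S phase (chr14:65819038-65833994), differed by 3.74, and the ring subunits Smc1a (0.17), Smc3 (0.10) and Rad21 (0.62) passed neither rule. Esco2 lies on chromosome 14, whose share of counts was low in 5 of the 40 cells compared.

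**Figure D2:**
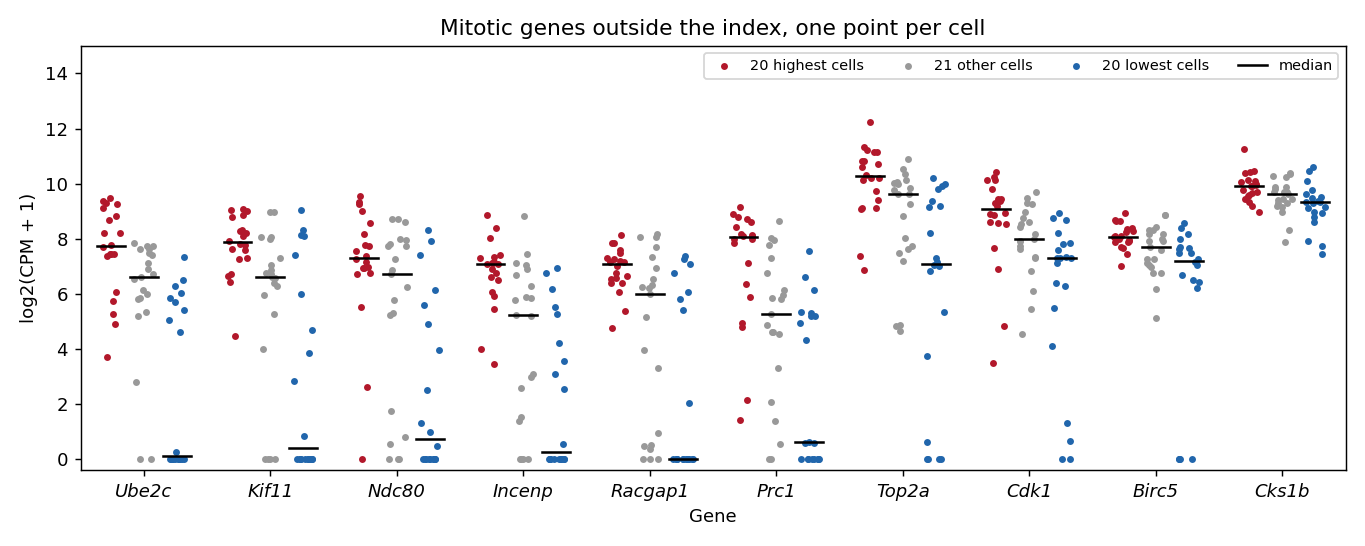
Level of 10 genes outside the index in log2(CPM + 1), 1 point per cell, with the median of each group as a bar. For Ube2c, Kif11 and Racgap1 many low cells sit at or near 0 (medians 0.10, 0.40 and 0 CPM), whereas Cks1b and Birc5 are shifted less.

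Genes of the CDK1 switch had 3 of 14 compared members higher by the quartile rule, beside 0.543% of all genes, and a median of 1.27. Cdk1 (chr10:69335146-69352938) had 10.4 to 1365 CPM (median 538) in high cells and 0 to 483 CPM (median 156) in low cells, with log2 means of 8.64 ± 1.76 and 5.92 ± 3.01 (SD), a difference of 2.72 and a 3.66-fold ratio of mean CPM. The CDK-binding subunits Cks1b and Cks2 had counts in every cell of both groups and ratios of 1.52 and 2.26. Both passed the quartile rule on small differences, 0.71 and 1.37, with SDs over high cells of 0.52 and 0.64. Cyclin A2 (Ccna2) had 139 to 900 CPM (median 224) in high cells and 0 to 468 CPM (median 146) in low cells, and cyclin B2 (Ccnb2) had medians of 175 and 156 CPM. Neither cyclin passed the quartile rule. Mastl, the Greatwall kinase that guards CDK1 targets from phosphatase, differed by 2.81, and its targets Ensa (-0.28) and Arpp19 (-0.39) lay below 0. The inhibitory kinases Wee1 (0.10) and Pkmyt1 (0.01) were nearly level between the groups. Of 16 listed genes of this switch, Ccnb3 and Cdc25b did not pass the count filter.

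The anaphase-promoting complex had 1 of 18 listed genes higher by the quartile rule, beside 0.543% of all genes, which was Ube2c. The core subunits ranged from Anapc2 (-1.51) to Anapc7 (2.24), and the list's median was 0.56. Centrosome genes had a median of 0.72, with no member of 16 past the quartile rule. By the difference rule 6 were higher, beside 13.3% of all genes. Alpha and beta tubulins had a median of -0.04 and no member past either rule. Tubb5, a beta tubulin, had 794 to 2633 CPM (median 1895) in high cells and 879 to 2187 CPM (median 1689) in low cells, ranges that nearly coincide.

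Of the factors known to act on such promoters, the MuvB, B-MYB and FOXM1 list, none of 21 compared genes passed the quartile rule. By the difference rule 4 were higher and none lower, beside 13.3% and 5.29% of all genes. The list's median was 0.23. Foxm1 had a count in 13 of 20 high cells and 5 of 20 low cells, at medians of 0.577 and 0 CPM. Mybl2, which encodes B-MYB, had 0 to 524 CPM (median 52.6) and 0 to 223 CPM (median 23.4). Such low counts leave room for undetected differences, so a missed rule does not show equal levels. E2f2 and Rbl2 did not pass the count filter.

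The promoter letters were counted over the 300 bases from 250 before to 50 after each RefSeq start. Of 56 protein-coding genes higher by the quartile rule, 47 matched the table, with 50 promoters. Homology letters (TTTGAA or TTTAAA, both strands, matches allowed to overlap) were in 28 of the 50 (56%), against 19.4% of 9900 promoters of 7742 coding genes compared and 27.6% of all promoters in the table. CCAAT was in 28 of the 50 (56%), against 38.3% of promoters of coding genes compared. Both kinds together were in 20 of the 50, against 7.79%. The 48 G2/M genes, 42 of which matched, held homology letters in 76.6% of 47 promoters and CCAAT in 72.3%. All 8 index genes held CCAAT and 7 held homology letters. Aurkb, Esco2, Incenp and Shcbp1 were among the genes without an entry. Of 34 promoters of the 31 matched S-phase genes, 23 held CCAAT and 9 held homology letters. A share for the S-phase list is void, since 72.1% of its genes matched and at least 80% were asked for.

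**Figure D3:**
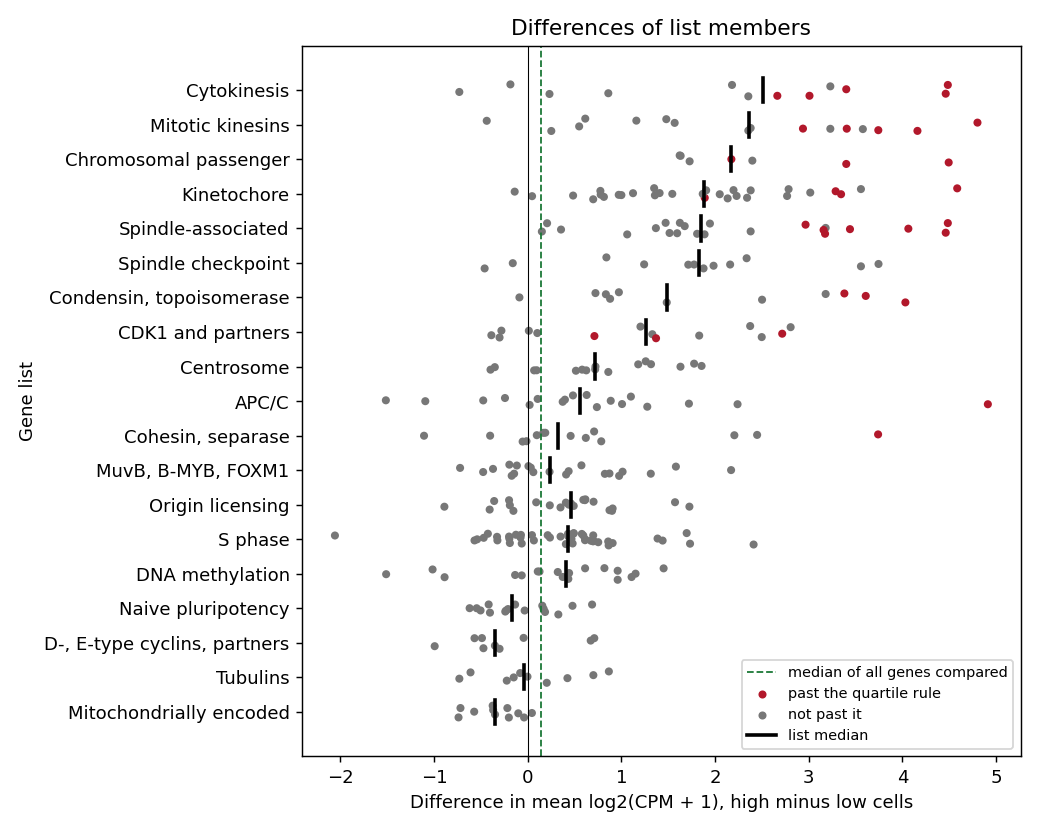
Difference in mean log2(CPM + 1), high minus low cells, for each compared member of 19 gene lists, with list medians as bars and members past the quartile rule in red. The cytokinesis, kinesin and chromosomal passenger lists have medians of 2.51, 2.37 and 2.17, while S-phase genes (0.43) and tubulins (-0.04) lie near the median of all genes (dashed, 0.14). The kinesin list also holds transport motors, the chromosomal passenger list shugoshin genes and the condensin and topoisomerase list other genes.

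Genes of DNA synthesis differed less. Of 43 S-phase genes, all past the count filter, none passed the quartile rule, 5 were higher and 1 lower by the difference rule, near or below the 13.3% and 5.29% of all genes, and the median difference was 0.43 against 0.14 over all genes. Averaged per cell they had 5.24 to 7.23 in high cells (median 6.30), 4.90 to 7.62 in middle cells (median 6.41) and 3.73 to 7.52 in low cells (median 6.12). The high range lay inside the low range. Without the 4 cells of lowest index the median difference was -0.10, so its sign rests on those cells. With an index of Cdc20, Cenpf, Hmmr and Cenpe alone it was -0.034. Pearson's r of the S-phase mean with the index was 0.42 over the 61 cells but Spearman's rho was 0.12. Blm, a DNA helicase, had the highest difference of the list (2.41) and Ung, which removes uracil from DNA, the lowest (-2.06), with 0 to 185 CPM (median 7.45) in high cells and 0 to 270 CPM (median 86.6) in low cells. Pcna, the sliding clamp, had a count in every cell of both groups and medians of 165 and 217 CPM. Genes that license origins had a median of 0.46 with none of 23 past the quartile rule. In the middle cells the S-phase mean had r of 0.07 with the index.

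**Figure D4:**
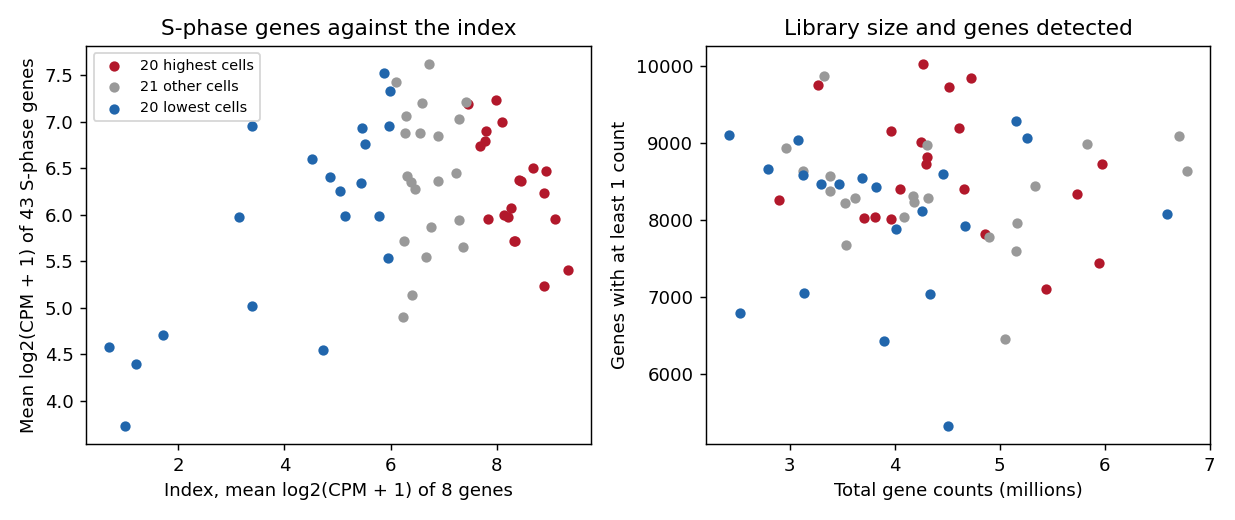
Left, the mean log2(CPM + 1) of 43 S-phase genes against the index, 1 point per cell. The 4 cells of lowest index have S-phase means of 3.73 to 4.71, and high cells span 5.24 to 7.23. Right, genes with at least 1 count against total gene counts for the same cells, where the groups overlap.

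The list of D- and E-type cyclins with their partners Cdk2, Cdk4, Cdk6 and Cdc25a had none of 9 genes past either rule. Its median was -0.35. By the difference rule 13.3% of all genes were higher and 5.29% lower. Ccnd1, cyclin D1, had 0 to 480 CPM (median 242) in high cells and 0.639 to 769 CPM (median 260) in low cells. Ccne1, cyclin E1, had 4.86 to 910 CPM (median 211) and 0 to 935 CPM (median 159). Both ranges overlap almost wholly. Of the CDK inhibitors, 4 of 7 passed the count filter. Of these 1 was higher by the difference rule, beside 13.3% of all genes, which was Cdkn2d (1.24). It had a count in 7 of 20 high cells and 3 of 20 low cells, with a median of 0 CPM in both groups.

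The study read DNA methylation in the same cells, so the enzymes of methylation are of interest. None of 18 compared genes (Tet3 missed the count filter) passed the quartile rule, 3 were higher and 2 lower by the difference rule, beside 13.3% and 5.29% of all genes. Dnmt1, the maintenance methyltransferase, had 7.29 to 582 CPM (median 83.8) in high cells and 0 to 356 CPM (median 99.2) in low cells, a difference of 1.15. That difference was 0.479 without the 4 cells of lowest index, 0.438 with an index of Cdc20, Cenpf, Hmmr and Cenpe alone and 0.388 in plate rows E to H, so the call rests on the cells used. Its median was lower in high cells while its mean was higher (132 and 100 CPM), and middle cells had the highest median, 177 CPM. Uhrf1, which guides DNMT1 to replicated DNA, had 7.3 to 1128 CPM (median 394) and 0 to 1098 CPM (median 261). The de novo enzymes Dnmt3a (1.11) and Dnmt3b (0.96) had medians of 33.1 and 492 CPM in high cells and 4.65 and 277 CPM in low cells. The Dnmt3b difference was -0.431 with the index of Cdc20, Cenpf, Hmmr and Cenpe, so it has no steady direction. For Dnmt3a mean CPM went the other way, 53.4 and 75 CPM. Gadd45a, a stress gene linked to demethylation, differed by -1.51, with counts in 13 of 20 high cells and 18 of 20 low cells.

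Of the naive pluripotency genes, 16 passed the count filter. Of these none passed either rule, with a median of -0.17, and Tbx3, Prdm14 and Tcl1 did not pass the count filter. Pou5f1, which encodes OCT4, had 196 to 1958 CPM (median 1026) in high cells and 74.1 to 2013.6 CPM (median 1272) in low cells. Nanog had 0 to 1298 CPM (median 60.3) and 0 to 679 CPM (median 213), with counts in 18 of 20 and 15 of 20 cells. The per-cell mean of the naive genes had a Spearman's rho of 0.08 with the index over the 61 cells. The ranges of the groups overlapped for both genes, although the highest Nanog values were in high cells. General pluripotency genes had a median of 0.68, with 3 of 18 higher, Lefty2 (1.59) and Lefty1 (1.42) the most, and 1 lower (Zfp281) by the difference rule, beside 13.3% and 5.29% of all genes, and none past the quartile rule.

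The 4 genes lower in high cells by the quartile rule were Yap1, Copb2, Ttc3 and Ube2l3, and none is in a list used here. Yap1, the growth regulator of the Hippo pathway (chr9:7931999-8004596), had 0 to 177 CPM (median 18.8) in high cells and 0 to 230 CPM (median 64.4) in low cells, with log2 means of 3.71 ± 2.34 and 4.99 ± 2.65 (SD) and a difference of -1.28. Copb2, a coat protein of Golgi vesicles (chr9:98563721-98588382), had 0 to 890 CPM (median 209) and 0 to 888 CPM (median 422), a difference of -1.26. Ttc3 (chr16:94370618-94469343), a ubiquitin ligase, and Ube2l3 (chr16:17152013-17202649), a ubiquitin-conjugating enzyme, differed by -0.61 and -0.59. Ube2l3 had a count in all 40 cells, with medians of 117 and 180 CPM. In all 4 the ranges of the groups overlapped. With an index of Ccnb1, Plk1, Aurka and Bub1 alone, Ttc3 differed by 0.047, the other way, Yap1 by -0.289 and Copb2 by -0.83. The number of such genes moved with the cells used: it was 0 with 30 cells in each group, 150 with 10 cells in each, 21 without the 6 compared cells that stood apart in chromosome 14 share, genes detected or mitochondrial share, and 8 without the 4 cells of lowest index.

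**Figure D5:**
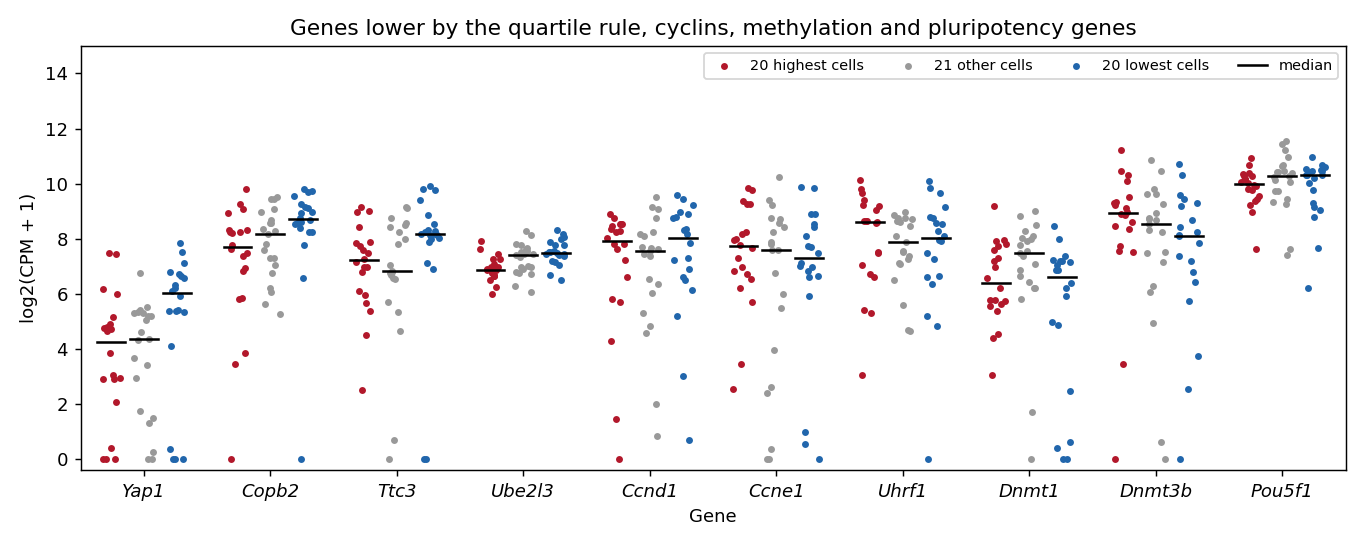
Level in log2(CPM + 1), 1 point per cell with group medians as bars, of the 4 genes lower in high cells by the quartile rule and of cyclin, methylation and pluripotency genes. Yap1 medians are 18.8 CPM in high cells and 64.4 CPM in low cells, and Pou5f1 points of all groups overlap.

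The 21 middle cells entered the count filter but not the quartile rule. For 52 of the 59 genes higher by the quartile rule (88.1%) the median of the middle cells lay between the medians of high and low cells, against 25.3% of all genes compared. Prc1 had a median of 37.9 CPM in middle cells, Top2a 787 CPM and Cdk1 256 CPM. Nek2, a centrosome kinase, had a middle median of 0 CPM, equal to that of low cells, against 47.9 CPM in high cells. A median between those of the groups is more readily reached where the groups are far apart, so the share over all genes is no matched comparison.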

How the data were processed

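The deposited table holds raw counts per gene, whole numbers, made by the authors. The submitters' processing notes list DESeq2, bedtools 2.19.1, GSNAP and SAMtools 0.1.18, and the build GRCm38. How reads were assigned to genes or strands is not stated there, so overlapping, antisense and near-identical genes are uncertain. The deposited normalized table was not used. CPM was computed over 36205 gene rows, without 95 ERCC rows. Quartiles, means and SDs were taken over cells with pandas 2.3.3, and TMM factors and size factors for alternatives came from edgeR 4.0.16 and DESeq2 1.42.0. Reads carry no named molecular identifiers. Pairwise Pearson correlations of cells ran from 0.57 to 0.80, and no 2 cells held the same values. Symbols matched 34880 rows; gene coordinates are from GENCODE M21. The named genes are the index genes, up to 15 genes of the greatest difference in each direction past the quartile rule, and list members chosen by role. The members and lists were chosen with earlier results of these data known. The procedure was tested on simulated data. A difference in mean log2(CPM + 1) depends on the pseudocount of 1 and can understate the ratio of a gene of low level. Where many cells sit at 0 it can instead far exceed the ratio of mean CPM. For Kif11 the difference was 4.80 on the log2 scale, while mean CPM was 3.21 times as high. The 2i wells and wells without a cell were not analysed here. Some list members are not reported here by name.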

Additional observations from a re-analysis of the deposited data

How the results depend on the processing

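Under 12 other settings and 2 more chosen after seeing the data, the G2/M list's median difference stayed above 0, from 1.36 with a pseudocount of 10 to 3.55 with 10 cells in each group. TMM scaling, DESeq2 size factors and thinning every cell to the smallest total kept each count within 1.5 times, and 56, 53 and 55 of the 59 genes were among those higher by the quartile rule. A pseudocount of 10 gave 302 genes higher and 70 lower by the difference rule. A filter of 10 counts in 30 cells left 6555 genes to compare, against 10860, and 284 of them were lower by that rule. With 10 cells in each group, 1535 genes were lower by the difference rule, and 359 were higher and 150 lower by the quartile rule, with 37 G2/M genes among the higher. With 30 cells in each group the difference rule gave 848 higher and 374 lower, and the quartile rule 10 higher and 0 lower, with 4 G2/M genes. An index of Cdc20, Cenpf, Hmmr and Cenpe gave 38 genes higher by the quartile rule, 12 of them G2/M genes, and an S-phase median of -0.034. With an index of Ccnb1, Plk1, Aurka and Bub1, Ttc3 differed by 0.047, the other way. Of genes that passed no rule, some also turned sign under at least 1 setting: Ccne1 ranged from -0.856 to 2.22, Ccnd1 from -1.924 to 0.098, Nanog from -0.877 to 0.313, Dnmt3b from -0.431 to 1.624, Uhrf1 from -0.156 to 0.765, Pou5f1 from -0.425 to 0.138 and Hells from -0.277 to 0.2. Plate rows A to D gave 944 lower by the difference rule and 194 higher and 71 lower by the quartile rule, and rows E to H gave 1489, 307 and 150, with fewer cells in each group. Without 6 cells that stood apart in library measures, 998 genes were lower by the difference rule and 21 by the quartile rule. Without the 4 cells of lowest index, 8 genes were lower by the quartile rule, 10 G2/M genes were higher and the S-phase median was -0.098. For other moves the cause was not tested. No paired analysis was possible because the cells are single and no test was made. Counts of a few per cell leave a gene at 0 that may be present.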

Other observations

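The 4 cells of lowest index had no count of Ube2c, at most 0.54 CPM of Top2a and at most 0.30 CPM of Mki67. Ccnb1 reached 10.1 CPM at most. Other genes of the cycle were not lost in all of these cells. Cdc20 had 1.15 to 242 CPM, Cks1b 239 to 719 CPM and Cdk1 0 to 157 CPM. Cenpa had a count in all 4, at up to 149 CPM. The libraries of the 4 cells were not small: total counts were 3468366 to 6597540 and genes with a count 7887 to 8546. Their 48-gene G2/M mean was 2.76 to 3.48 and their S-phase mean 3.73 to 4.71, against 3.78 to 6.46 and 4.54 to 7.52 in the other 16 low cells. Ccnd1 was present in all 4, at 433 to 769 CPM, against a median of 260 CPM over all low cells. Mcm6, a subunit of the replicative helicase, was present at 341 to 749 CPM. Pcna was present at 65.7 to 143 CPM, below its median over all low cells. The keratin genes Krt8 and Krt18 split these cells: 2 had 3041 and 5858 CPM of Krt8, and the other 2 had 0 and 2.71 CPM. In the same order Pou5f1 had 439 and 74.1 CPM in the first 2 and 1646 and 1419 CPM in the other 2. The 4 cells were singled out after their values were seen. Between all high and all low cells, Krt8 differed by -1.489 and Krt18 by -1.753. Both were lower in high cells by the difference rule, beside 5.29% of all genes, and neither passed the quartile rule. Without these 4 cells the differences were -1.386 and -1.743. In plate rows E to H that of Krt8 was -0.241.

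Genes with no place in a cell cycle list made up 29 of the 59 genes higher by the quartile rule, and those named here beside Miip and Shcbp1 were chosen after their values were seen. Miip (chr4:147860778-147868816), an inhibitor of cell migration, had 0 to 373 CPM (median 71) in high cells and 0 to 63.6 CPM (median 0) in low cells, with counts in 16 of 20 and 5 of 20 cells. Shcbp1, a binding partner of the adaptor SHC1 (chr8:4735976-4779567), differed by 4.05, yet the highest low cell (924 CPM) exceeded the highest high cell (492 CPM). Arl6ip1, a protein of the endoplasmic reticulum, had a count in every cell of both groups, with 116 to 1629 CPM (median 573) and 42.4 to 620 CPM (median 220). Uba2, a subunit of the SUMO-activating enzyme, had 218 to 1305 CPM (median 763) and 10.9 to 1199 CPM (median 387). Ccnb1-ps, a processed pseudogene of the index gene Ccnb1, was also higher, at medians of 5.89 and 1.71 CPM, and its reads may be those of Ccnb1. Brip1os is antisense to another gene, and without a stated use of strand its counts are uncertain.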
